A study of Mus musculus with 6 samples.

Results

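The genes described here encode the machinery of cyclic nucleotide signalling. They were chosen by their symbols in the table of read counts, with earlier results of these data known. The symbols are those of adenylyl cyclases (Adcy), subunits of soluble guanylyl cyclase (Gucy1), phosphodiesterases (Pde), subunits of protein kinase A (Prka), protein kinase G (Prkg) and A-kinase anchoring proteins (Akap). The pattern took 62 of 49315 genes. Of these, 48 had enough reads to be tested. The 14 that did not pass the filter on low counts were Adcy1, Adcy2, Adcy8, Adcy10, Gucy1b2, Pde6a, Pde6b, Pde6c, Pde11a, Prkg2, Akap3, Akap4, Akap14 and the pseudogene Prkaca-ps1. Prkaca-ps1 and 2 tested genes match by symbol alone: Pde4dip encodes the scaffold protein myomegalin, and Pde6d a protein that binds prenyl groups.

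Adenylyl cyclases make cyclic AMP when receptors engage the stimulatory G protein, and soluble guanylyl cyclase makes cyclic GMP when it binds nitric oxide. Phosphodiesterases degrade both messengers, and cyclic AMP frees the catalytic subunits of protein kinase A from the regulatory ones, while anchoring proteins hold the kinase close to its substrates. In heart muscle this pathway carries the adrenergic signal that raises the rate and force of the beat, and in vessels cyclic GMP acts through protein kinase G to relax smooth muscle.

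Messenger RNA came from the mid-ventricular part of the heart in adult mice. There were 3 libraries labelled TET2KO, from mice with a knockout of Tet2 restricted to endothelial cells, and 3 labelled WT, from wild-type mice. Animals of both groups carried osmotic minipumps under the skin that delivered Angiotensin II, a vasoconstrictor peptide, at 1.0 mg/kg/day for 28 days, so no group here lacks the peptide. The sources used here do not give the promoter that drives the deletion, the deleted exons or the sex. All 6 libraries share 1 batch label, and the 3 samples within each group are described by the submitters as biological replicates, so the p-values measure the spread between these animals. Library totals ran between 22124844 and 30418909 counted reads. In whole tissue, fewer cells of a type and less RNA per cell cannot be told apart.

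Levels are given as CPM, counts divided by library size after scaling with TMM factors, and comparisons between genes as the authors' deposited TPM, which is also divided by gene length. A log2 fold change is that of the libraries labelled TET2KO over those labelled WT, ± SE, from edgeR's quasi-likelihood test, and a gene counts as higher or lower when its Benjamini-Hochberg adjusted p over all tested genes is under 0.05. Over all tested genes, longer transcripts had larger log2 fold changes (Spearman's rank correlation 0.61 over 14341 genes, which are not independent). Each result is therefore also given as a trend-removed value, from a fit in which a smooth trend on transcript length and GC content was taken out of every library. A difference between the groups that runs along length or GC content would be lost in it too.

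Tet2 was compared first because it is the gene the labels name. It stood at 14.6, 8.01 and 10.3 CPM in the libraries labelled TET2KO, against 4.27, 4.33 and 3.08 CPM in those labelled WT. The level was higher in all 3 libraries labelled TET2KO, which goes against the label (log2 fold change 1.49 ± 0.29, edgeR adjusted p = 0.00652). Its trend-removed value, 0.27 ± 0.17, was not past the test. Counts over a whole gene in whole tissue may not show a deletion in 1 cell type, and directions in the text are those of the labels. Library TET2KO replicate 2 stood nearer to the libraries labelled WT than TET2KO replicates 1 and 3. The median difference of the 48 members from the WT mean was 1.22, 0.43 and 1.00 on the log2 scale in TET2KO replicates 1, 2 and 3. Over all tested genes it was 0.044, 0.043 and 0.039, a median that TMM scaling keeps alike between libraries. That median therefore cannot show whether the nearness was particular to the members. Tet2, which is no member, also had its lowest TET2KO level in replicate 2.

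Most of the pathway stood higher in the libraries labelled TET2KO. Of 48 tested members, 29 were higher, 1 was lower and 18 did not pass the test, with a median log2 fold change of 1.09. Over all 14370 tested genes 33.4% were higher and 29.4% lower (62.9% in either direction), and their median was 0.046. The trend-removed fit had 14 members higher, 6 lower and 28 that did not pass, with a median of 0.33, against 21.7% of all genes higher and 24.2% lower (46.0% in either direction) and a median of -0.030. In both fits together 12 members were higher and 1 lower, where 16.3% of all genes were higher in both and 16.3% lower in both. No member turned from higher in the first fit to lower in the second.

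Many of these calls depended on single libraries or on scaling. Of the 30 called members 12 lost the call without at least 1 library, and of the 20 trend-removed calls 11 were lost in this way. The count of higher members was 18 without WT replicate 3 and 36 without TET2KO replicate 2. Scaling by the total of each library gave 37 higher and 1 lower member and a median of all genes of 0.47 in place of 0.046, where 74.2% of the calls over all genes were higher and TMM factors gave 53.2%. The log2(TPM + 1) values gave 40 higher and 1 lower member, and 79.3% of the calls over all genes were higher. Of the 48 tested members, 43 passed the filter in both groups (25 higher, 1 lower, 17 not past) and 5 passed through the libraries labelled TET2KO alone (Adcy3, Gucy1a2, Pde10a, Prkar1b and Akap2). CPM values of the 2 groups did not overlap for 31 members that were higher and 3 that were lower, where 38.0% of all genes were higher and 35.5% lower without overlap (73.5% in either direction). In 28 of the 29 higher members TET2KO replicate 2 held the lowest level of the 3 libraries labelled TET2KO. The same count over all higher genes was not made, so this order cannot be called particular to the members. Tet2, Nos3 and Crtc1, which are no members and were higher as counted, had it too.

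There were 6 members that stood past the test and higher in each of the 23 settings tried, including the trend-removed ones and those that left out any 1 library, where 7.72% of all genes did so. They are Adcy5, a cyclase of heart muscle; Pde4a, a cyclic AMP phosphodiesterase; Prkaca, Prkacb and Prkar2a, subunits of protein kinase A; and Pde4dip, the myomegalin gene. No member was lower in all 23.

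**Figure D1:**
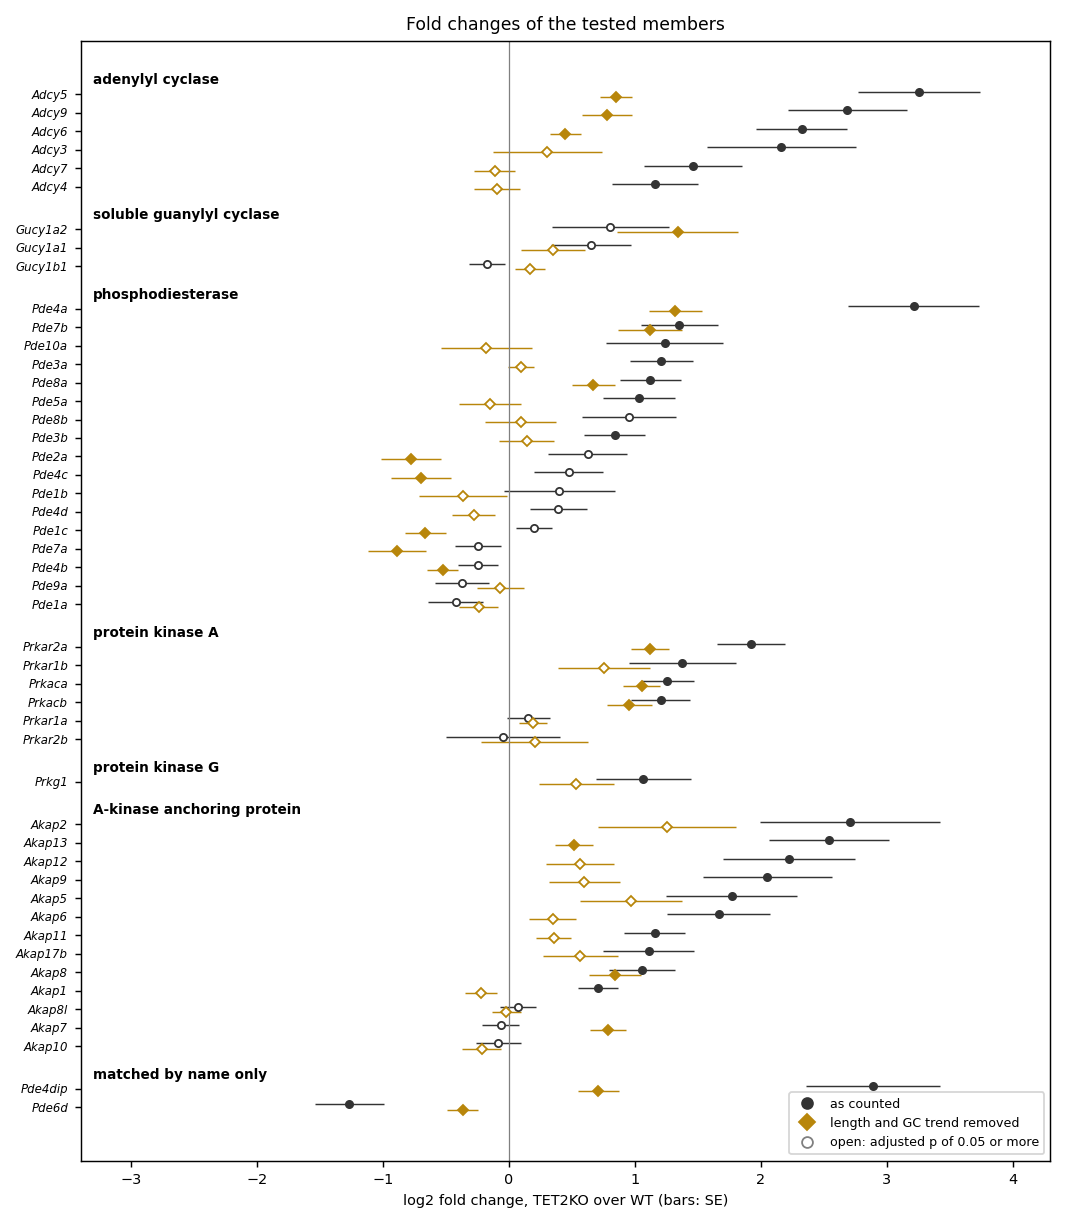
Log2 fold change of the libraries labelled TET2KO over those labelled WT (horizontal axis) for the 48 tested members, grouped by role; black circles are values as counted, dark yellow diamonds trend-removed values, bars are SE, and open symbols did not pass the test. Most black circles lie right of 0, and most diamonds lie closer to 0, with 5 phosphodiesterases and Pde6d past the test on the left.

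The genes that make cyclic AMP were the first group compared. All 6 tested adenylyl cyclases were higher in the libraries labelled TET2KO, with a median log2 fold change of 2.25, where 33.4% of all genes were higher. Among the 6, Adcy3 had passed the filter through the libraries labelled TET2KO alone. With the trend removed 3 of them (Adcy5, Adcy6 and Adcy9) stayed higher, where 16.3% of all genes were higher in both fits. Adcy5 and Adcy6, which calcium inhibits, are known as the main forms in heart muscle. Adcy6 stood at 123, 45.4 and 113 CPM in the libraries labelled TET2KO, against 19.3, 20.1 and 16.7 CPM in those labelled WT. The lowest library labelled TET2KO was above the highest labelled WT, and the log2 fold change was 2.33 ± 0.36 (edgeR adjusted p = 0.00652, trend-removed 0.45 ± 0.12). This trend-removed call was lost without TET2KO replicate 3 (0.38), WT replicate 1 (0.45) or WT replicate 3 (0.40). Adcy5 (ENSMUSG00000022840, GRCm38 chromosome 16, 35154877 to 35305738, plus strand, protein coding) held 67.5, 16.4 and 51.4 CPM, against 4.37, 4.91 and 4.87 CPM in the libraries labelled WT. Its 9.57-fold difference was the largest among the tested members on the scale of the counts (log2 fold change 3.26 ± 0.49), and its trend-removed value was 0.85 ± 0.13 (edgeR adjusted p = 0.00398). Over the 23 settings its log2 fold change ran between 0.78 and 3.71.

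Adcy9, a widely expressed cyclase that forskolin activates only weakly, stood at 17.2, 4.77 and 10.3 CPM in the libraries labelled TET2KO, against 1.78, 1.92 and 1.29 CPM in those labelled WT. There was no overlap between groups (2.69 ± 0.47, trend-removed 0.78 ± 0.20), and the trend-removed call was lost without WT replicate 3 (0.66). Adcy4 and Adcy7 belong to the subfamily that G protein beta and gamma subunits stimulate. Adcy4 had 20.1, 8.27 and 20.3 CPM, against 7.83, 6.87 and 7.05 CPM in the libraries labelled WT (1.16 ± 0.34). Adcy7 had 18.8, 6.30 and 15.0 CPM, against 5.28, 5.15 and 4.09 CPM in the libraries labelled WT (1.46 ± 0.39). For both genes TET2KO replicate 2 lay close to the WT level, and their trend-removed values changed sign, to -0.094 ± 0.18 and -0.11 ± 0.16, neither past the test. The call for Adcy4 was lost without TET2KO replicate 3 (1.00), WT replicate 1 (1.22), WT replicate 2 (1.12) or WT replicate 3 (1.14), and that for Adcy7 without WT replicate 3 (1.36). Adcy3, known from the cilia of olfactory neurons, was low, with 143, 43 and 97 reads in the libraries labelled TET2KO and 9, 28 and 4 in those labelled WT. It was higher as counted (2.16 ± 0.59) but not with the trend removed (0.31 ± 0.43), and as counted not without WT replicate 1 (1.97) or WT replicate 3 (1.80). With the trend removed it was higher without WT replicate 2 (1.2). About 22.1% of its exonic bases are shared with Cenpo on the other strand, and the sources used here do not give the strand setting of the counting.

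The relative levels of the cyclases also differed between groups. By mean TPM the order in the libraries labelled TET2KO was Adcy6 (39.2 ± 19.9), Adcy5 (16.4 ± 10.5), Adcy4 (11.6 ± 5.54), Adcy9 (5.27 ± 3.47), Adcy7 (5.0 ± 2.74) and Adcy3 (1.12 ± 0.58) (SD, n = 3). In the libraries labelled WT it was Adcy6 (4.92 ± 0.854), Adcy4 (3.26 ± 0.284), Adcy7 (1.14 ± 0.226), Adcy5 (1.06 ± 0.125), Adcy9 (0.509 ± 0.138) and Adcy3 (0.158 ± 0.139) (SD, n = 3). In the libraries labelled TET2KO the means of Adcy5 and Adcy4 lay within their SD, and in TET2KO replicate 2 Adcy4 (16.4% of the summed TPM of the family) was just above Adcy5 (16.3%). Adcy9 and Adcy7 also lay within their SD in the libraries labelled TET2KO. Adcy7 was above Adcy9 in TET2KO replicate 2 (2.09 and 2.05 TPM) and TET2KO replicate 3 (5.38 and 4.82 TPM). In the libraries labelled WT, Adcy7 and Adcy5 lay within their SD. Adcy5 and Adcy6 together made up 70.3, 68.7 and 70.8% of the summed TPM of the family in TET2KO replicates 1, 2 and 3, against 51.9, 54.4 and 53.7% in WT replicates 1, 2 and 3. This share lay close together in all 3 libraries labelled TET2KO. The groups did not overlap, and an exact two-sided permutation test of 3 against 3 cannot give a p under 0.1. Shares rest on the deposited TPM, from which no trend was removed; the longest transcripts of Adcy5, Adcy6 and Adcy4 measure 7008, 6038 and 3501 nt.

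**Figure D2:**
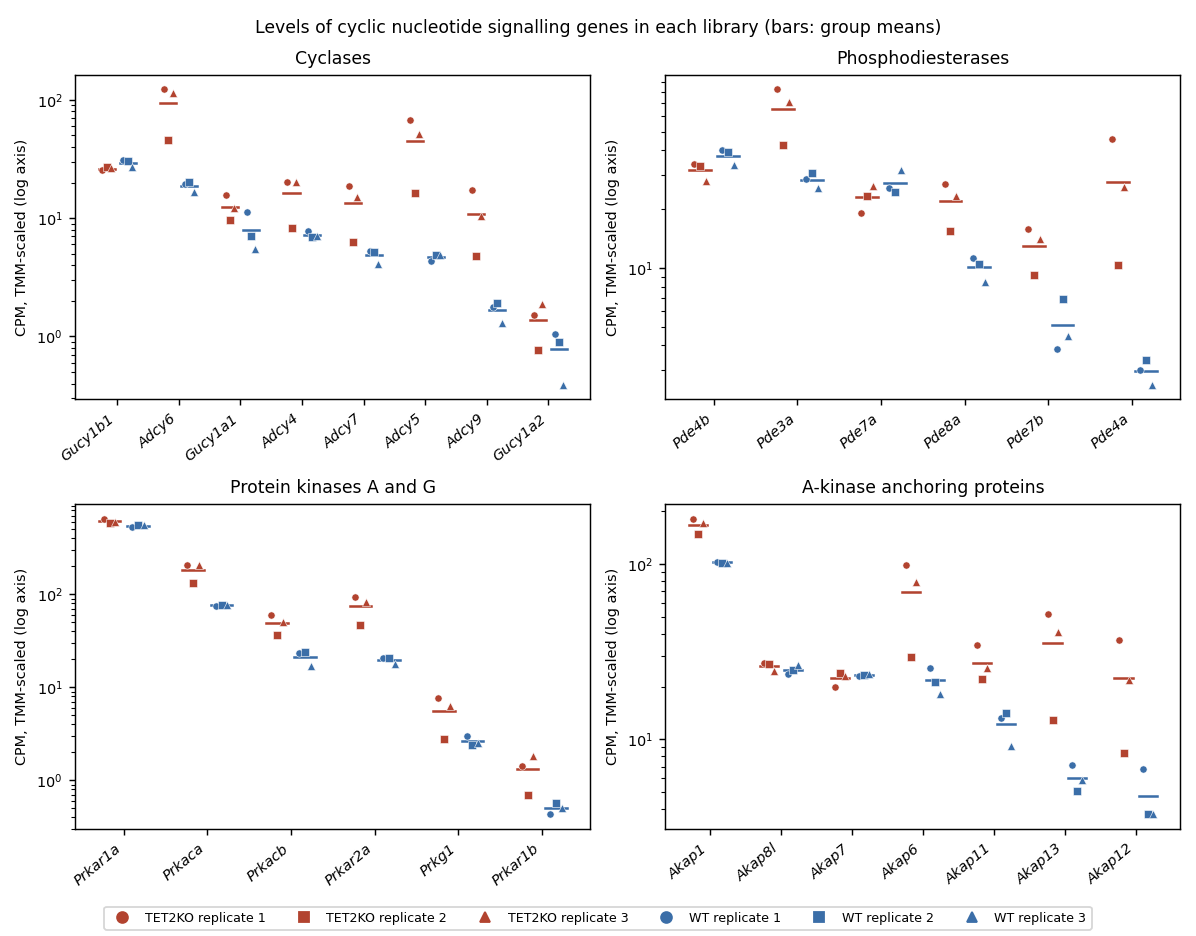
CPM (vertical log axis) of the named members in each library, with TET2KO libraries in red left of WT libraries in blue; the symbol shape gives the replicate number and the short bars the group means. TET2KO replicate 2 (red squares) is the lowest red point for most genes, while Gucy1b1, Pde4b, Pde7a, Prkar1a, Akap7 and Akap8l have group means close to each other.

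Soluble guanylyl cyclase works as a pair of an alpha and a beta subunit. None of the 3 tested soluble guanylyl cyclase genes passed the test as counted, where 62.9% of all genes passed in either direction. Gucy1b1, the beta subunit that carries the heme to which nitric oxide binds, stood at 25.4, 26.9 and 26.3 CPM in the libraries labelled TET2KO, against 31.2, 30.5 and 26.8 CPM in those labelled WT. The groups overlapped at the margin, and the log2 fold change was -0.17 ± 0.14 with a 95% interval of -0.51 to 0.16. Its sign turned with the trend removed (0.17 ± 0.12, not past) and on log2(TPM + 1) values (0.44, past the test). Gucy1a1, its usual alpha partner, had 15.8, 9.57 and 12.1 CPM, against 11.3, 7.03 and 5.43 CPM in the libraries labelled WT. The groups overlapped, with a log2 fold change of 0.65 ± 0.32 (95% interval -0.081 to 1.39), which passed the test without TET2KO replicate 2 (0.84) or WT replicate 1 (1.00). With these, Gucy1a1 was higher in 5 of the 23 settings. Gucy1a2, the other alpha subunit, was low, at 1.51, 0.767 and 1.87 CPM, against 1.06, 0.899 and 0.392 CPM in the libraries labelled WT. It did not pass as counted (0.80 ± 0.47), passed without TET2KO replicate 2 (1.11) and was higher with the trend removed (1.34 ± 0.48, edgeR adjusted p = 0.0474). That last call was lost without any 1 library other than TET2KO replicate 2 (values between 1.04 and 1.58). Among the 3 genes the beta subunit took 71.9, 82.2 and 76.4% of the summed TPM, against 81.0, 87.2 and 88.8% in the libraries labelled WT, and the groups overlapped.

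Of 17 tested phosphodiesterases, 7 were higher and 10 did not pass the test, where 33.4% of all genes were higher and 29.4% lower. After removal of the trend 3 were higher (Pde4a, Pde7b and Pde8a) and 5 were lower (Pde1c, Pde2a, Pde4b, Pde4c and Pde7a), none of which had passed as counted. In that fit 21.7% of all genes were higher and 24.2% lower. Pde4a (ENSMUSG00000032177, GRCm38 chromosome 9, 21165714 to 21213248, plus strand, protein coding) is 1 of 4 genes of the cyclic AMP-specific PDE4 family, the targets of rolipram. It stood at 46, 10.3 and 26.1 CPM in the libraries labelled TET2KO, against 2.98, 3.35 and 2.52 CPM in those labelled WT. Its libraries labelled TET2KO differed widely among themselves, yet all lay above those labelled WT (9.27-fold, log2 fold change 3.21 ± 0.52, edgeR adjusted p = 0.00652, trend-removed 1.32 ± 0.21). Pde4b, its close relative, had 33.9, 33.2 and 27.9 CPM, against 40.2, 39.2 and 33.5 CPM in the libraries labelled WT. As counted it did not pass (-0.25 ± 0.16, 95% interval -0.61 to 0.12), and with the trend removed it was lower (-0.53 ± 0.12, edgeR adjusted p = 0.00949), also without any 1 library.

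Within the PDE4 family the balance of the transcripts differed. Pde4a made up 52.5, 22.2 and 42.9% of the family's summed TPM in TET2KO replicates 1, 2 and 3, against 7.16, 8.0 and 6.33% in WT replicates 1, 2 and 3. Pde4b made up 28.1, 51.8 and 33.3%, against 70.2, 67.8 and 61.1% in the libraries labelled WT. Pde4b was the main form in each library labelled WT and in TET2KO replicate 2, and Pde4a was the main form in TET2KO replicates 1 and 3. The longest transcripts of the pair are close in length, 4653 nt for Pde4a and 4304 nt for Pde4b, with a GC content of 57.2 and 45.9%. The share of the whole PDE4 family among phosphodiesterase transcripts overlapped between groups, at 30.7, 24.7 and 24.6%, against 25.0, 24.8 and 24.7% in the libraries labelled WT. Of the remaining members of the family, Pde4d did not pass in either fit (0.39 ± 0.22 and -0.28 ± 0.17), and Pde4c passed only with the trend removed (0.47 ± 0.28 and -0.70 ± 0.24). The trend-removed call for Pde4c was lost without TET2KO replicate 1 (-0.56), TET2KO replicate 3 (-0.75), WT replicate 1 (-0.77) or WT replicate 3 (-0.47). Without TET2KO replicate 2, Pde4c (0.66) and Pde4d (0.51) were higher as counted.

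The PDE7 pair, also specific for cyclic AMP, parted in a similar way. Pde7b stood at 15.8, 9.24 and 14 CPM in the libraries labelled TET2KO, against 3.84, 6.91 and 4.48 CPM in those labelled WT. Each library labelled TET2KO lay above the WT range, and the log2 fold change was 1.35 ± 0.31 (trend-removed 1.12 ± 0.25), past the test in both fits without any 1 library. Pde7a had 19.2, 23.4 and 26.4 CPM, against 25.6, 24.4 and 31.7 CPM in the libraries labelled WT. Its groups overlapped (-0.25 ± 0.19, 95% interval -0.68 to 0.18) and its trend-removed value was lower (-0.89 ± 0.23), a call lost without WT replicate 3 (-0.69). The share of Pde7a among all phosphodiesterase transcripts was 6.63, 12.3 and 10.5%, against 15.2, 14.2 and 19.4% in the libraries labelled WT, without overlap.

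Pde8a, a cyclic AMP phosphodiesterase of high affinity, had the highest mean TPM of the family over the 6 libraries (13.5 ± 4.70 in the libraries labelled TET2KO and 3.93 ± 0.773 in those labelled WT, SD, n = 3). It stood at 26.8, 15.5 and 23.5 CPM, against 11.2, 10.5 and 8.46 CPM in the libraries labelled WT. All libraries labelled TET2KO were above those labelled WT (1.12 ± 0.24, trend-removed 0.67 ± 0.17), and the trend-removed call was lost without TET2KO replicate 3 (0.62) or WT replicate 3 (0.58). Pde3a, the cyclic GMP-inhibited form that limits cyclic AMP near the calcium stores of heart muscle, had 82.4, 42.7 and 71.0 CPM, against 28.7, 30.5 and 25.6 CPM in the libraries labelled WT. All libraries labelled TET2KO stood above the WT range, and the log2 fold change of 1.21 ± 0.25 came down to 0.10 ± 0.10 with the trend removed, which was not past the test. In the libraries labelled TET2KO the levels of Pde8a and Pde3a (12.8 ± 5.03 TPM) and of Pde4a (9.16 ± 6.66 TPM) lay within their SD of each other. In the libraries labelled WT, Pde4b (5.64 ± 0.905 TPM) and Pde7a (5.50 ± 0.419 TPM) led, again within their SD, and of the 17 genes Pde10a, Pde2a, Pde8b, Pde5a and Pde3b stood below Pde4a (0.612 ± 0.137 TPM).

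Several phosphodiesterases act on cyclic GMP, alone or beside cyclic AMP. Pde5a, the cyclic GMP-specific target of sildenafil, stood at 6.53, 4.70 and 5.49 CPM in the libraries labelled TET2KO, against 3.55, 2.70 and 1.90 CPM in those labelled WT (1.03 ± 0.29, trend-removed -0.15 ± 0.25). Its call was lost without TET2KO replicate 3 (1.07), WT replicate 2 (1.03) or WT replicate 3 (0.84). Pde1c, a calcium- and calmodulin-activated form, had 61.1, 54.4 and 52.4 CPM, against 48.8, 48.7 and 48.8 CPM in the libraries labelled WT. That difference did not pass (0.20 ± 0.14, 95% interval -0.13 to 0.53), and with a transcript of 8766 nt its trend-removed value was lower (-0.66 ± 0.17), a call lost without TET2KO replicate 3 (-0.58) or WT replicate 3 (-0.57). Pde2a, which cyclic GMP stimulates, was not past as counted (0.63 ± 0.31) and lower with the trend removed (-0.78 ± 0.24). This call was lost without TET2KO replicate 1 (-0.79), TET2KO replicate 3 (-0.66), WT replicate 1 (-0.81) or WT replicate 3 (-0.68), and without TET2KO replicate 2 Pde2a was higher as counted (0.85). A share of 64.3% of its exonic bases is also annotated to Gm45837, which had 0 reads. Pde9a, with high affinity for cyclic GMP, did not pass in any of the 23 settings (-0.37 ± 0.21, 95% interval -0.86 to 0.12).

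The other phosphodiesterases were low or changed with the settings. Pde3b (0.84 ± 0.24) and Pde10a (1.24 ± 0.47), which degrades both messengers, were higher as counted and not with the trend removed (0.14 ± 0.22 and -0.18 ± 0.36). Pde3b lost its call without TET2KO replicate 3 (0.74), WT replicate 2 (0.78) or WT replicate 3 (0.77). Pde10a lost it without TET2KO replicate 1 (1.05) or 3 (1.19) and without WT replicate 1 (1.07) or 3 (0.98). Pde8b did not pass (0.95 ± 0.37, edgeR adjusted p = 0.0532) and was the only member of the 48 called otherwise in the authors' deposited table, where its adjusted p was 0.0418. It passed without TET2KO replicate 2 (1.2) or WT replicate 1 (1.28). Pde1a (-0.42 ± 0.22) and Pde1b (0.40 ± 0.44) did not pass, and without TET2KO replicate 2 Pde1a was lower (-0.56) and Pde1b higher (0.78). Summed over the families, the ratio of adenylyl cyclase to phosphodiesterase TPM was 1.15, 0.585 and 1.14 in TET2KO replicates 1, 2 and 3, against 0.340, 0.336 and 0.307 in WT replicates 1, 2 and 3, without overlap. No trend was removed from the TPM behind this ratio. Adcy6 and Adcy5, the cyclases with the highest mean TPM, were 5.01-fold and 9.57-fold higher as counted and 1.36-fold and 1.8-fold with the trend removed.

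**Figure D3:**
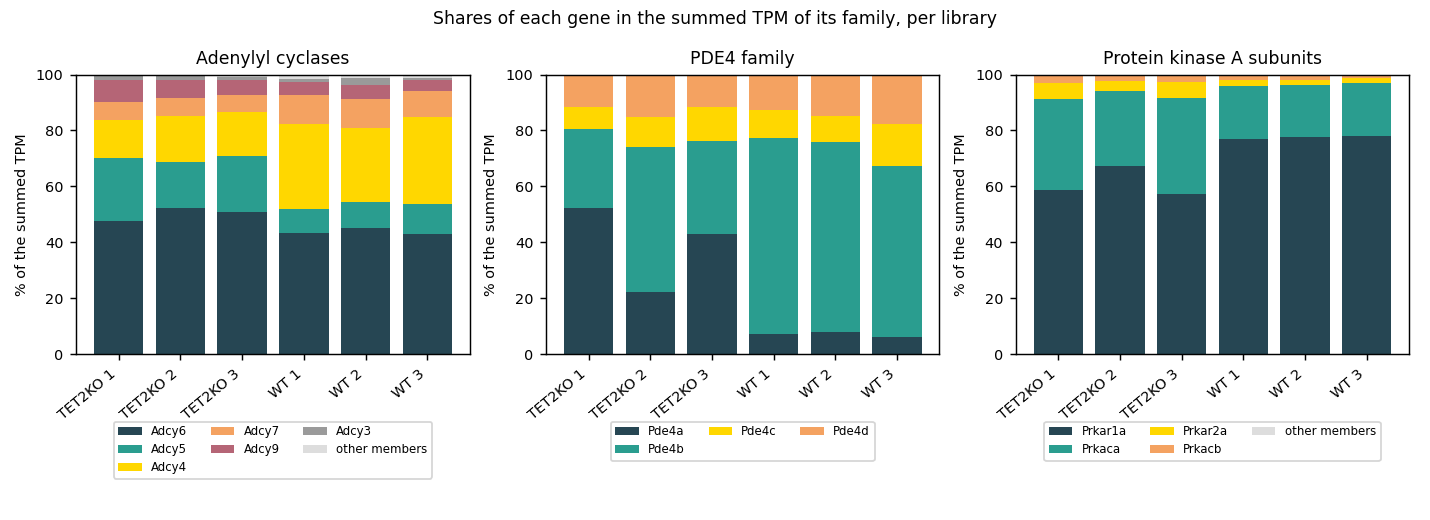
Share of each gene in the summed TPM of the adenylyl cyclases, the PDE4 family and the subunits of protein kinase A (vertical axis, %), with 1 stacked bar for each library and the 3 TET2KO libraries left of the 3 WT libraries. Adcy5 and Adcy6 together fill 68.7 to 70.8% of the TET2KO bars and 51.9 to 54.4% of the WT bars; Pde4a fills 22.2 to 52.5% of the TET2KO bars and 6.33 to 8.0% of the WT bars; Prkar1a fills 57.4 to 67.4% of the TET2KO bars and 76.9 to 78.1% of the WT bars.

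Protein kinase A, the effector of cyclic AMP, held 3 of the 6 members called in all settings. Of 6 tested subunit genes, 4 were higher and 2 did not pass the test, where 33.4% of all genes were higher. Among the 4, Prkar1b had passed the filter through the libraries labelled TET2KO alone. Prkaca, Prkacb and Prkar2a were higher in all 23 settings, where 7.72% of all genes were. The promoters of the 3 subunit genes with the most transcripts are shown because the kinase acts on the factor CREB, whose full response element is TGACGTCA and whose shorter core site is TGACG. Windows span a RefSeq start (build GRCm38.p6) and read 5′ to 3′ on the plus strand, the coding strand of the 3 genes, with matches on either strand in capitals. Where a full element is present, its letters hold 2 core sites.
Prkar1a, chr11:109650699-109650998, plus strand: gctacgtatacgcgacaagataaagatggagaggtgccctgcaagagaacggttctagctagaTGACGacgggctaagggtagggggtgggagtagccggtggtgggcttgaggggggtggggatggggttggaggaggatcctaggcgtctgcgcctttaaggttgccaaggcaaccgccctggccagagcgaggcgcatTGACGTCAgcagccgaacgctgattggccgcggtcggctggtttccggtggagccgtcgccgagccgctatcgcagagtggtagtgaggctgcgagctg
Prkaca, chr8:83972728-83973027, plus strand: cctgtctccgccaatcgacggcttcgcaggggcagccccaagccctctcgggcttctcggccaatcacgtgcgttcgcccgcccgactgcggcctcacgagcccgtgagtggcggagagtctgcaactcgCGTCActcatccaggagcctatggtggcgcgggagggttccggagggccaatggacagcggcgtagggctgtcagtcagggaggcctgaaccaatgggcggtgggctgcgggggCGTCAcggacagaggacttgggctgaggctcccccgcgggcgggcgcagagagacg
Prkar2a, chr9:108691893-108692192, plus strand: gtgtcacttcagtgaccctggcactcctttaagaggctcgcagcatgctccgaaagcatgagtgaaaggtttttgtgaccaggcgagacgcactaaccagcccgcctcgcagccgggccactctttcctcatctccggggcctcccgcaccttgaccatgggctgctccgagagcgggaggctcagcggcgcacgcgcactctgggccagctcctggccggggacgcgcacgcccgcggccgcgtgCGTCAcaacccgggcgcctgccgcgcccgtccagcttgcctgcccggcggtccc
The Prkar1a window holds the full element 49 bases before the start and 3 core sites in all, the Prkaca window 2 core sites and the Prkar2a window 1. RefSeq gives Prkar1a 3 starts, and of the windows not shown 1 overlaps the printed one and holds the same full element, while the other holds 1 core site. Among the 41 tested members with a window in the RefSeq table, 1 held the full element (2.44%), where 3.45% of 10637 tested genes and 2.03% of all 27025 genes with a window did. The core site was present in 41.5% of these members, 34.6% of tested genes and 23% of all genes. The CCAAT box, CCAAT on either strand, which shares at most 1 end letter with a core site, was present in 63.4%, 42.5% and 41.1%. These matches describe the letters of the windows and show no binding, and windows of the tested members also held more CpG dinucleotides (a median of 27, against 21 in tested genes and 8 in all).

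Prkaca (ENSMUSG00000005469, GRCm38 chromosome 8, 83972993 to 83996443, plus strand, protein coding) encodes the main catalytic subunit of the heart. It stood at 208, 133 and 205 CPM in the libraries labelled TET2KO, against 75.4, 76.2 and 76.7 CPM in those labelled WT. The WT libraries were nearly equal and all TET2KO libraries lay above them (2.39-fold, log2 fold change 1.26 ± 0.21, edgeR adjusted p = 0.00652). Its transcript of 2276 nt is shorter than the median of tested genes (2996 nt), and the trend-removed value of 1.05 ± 0.15 was close to the value as counted. Prkacb, the second catalytic subunit, had 60.1, 36.9 and 51.0 CPM, against 23.2, 24.1 and 16.8 CPM in the libraries labelled WT. Again the groups were apart, with a log2 fold change of 1.21 ± 0.23 and a trend-removed value of 0.96 ± 0.18.

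Among regulatory subunits the values were unlike. Prkar2a (ENSMUSG00000032601, GRCm38 chromosome 9, 108689314 to 108750436, plus strand, protein coding), the type II subunit that anchoring proteins bind, stood at 94.9, 46.5 and 83.7 CPM in the libraries labelled TET2KO, against 20.8, 20.6 and 17.9 CPM in those labelled WT. All libraries labelled TET2KO were above those labelled WT (3.79-fold, log2 fold change 1.92 ± 0.27, edgeR adjusted p = 0.00652, trend-removed 1.12 ± 0.15). Prkar1a (ENSMUSG00000020612, GRCm38 chromosome 11, 109649405 to 109669656, plus strand, protein coding), the type I subunit that is mostly soluble and is mutated in human Carney complex, had by far the most transcripts. It stood at 649, 583 and 595 CPM, against 531, 557 and 553 CPM in the libraries labelled WT. These ranges did not overlap, yet the difference was small beside its error (0.15 ± 0.17, 95% interval -0.24 to 0.55) and did not pass with the trend removed (0.19 ± 0.11), except without TET2KO replicate 2 (0.25). Prkar1b was low, at 1.43, 0.701 and 1.81 CPM, against 0.432, 0.572 and 0.504 CPM in the libraries labelled WT, without overlap. It was higher as counted (1.38 ± 0.42), not with the trend removed (0.76 ± 0.36) unless TET2KO replicate 2 was left out (0.96). As counted the call was lost without TET2KO replicate 1 (1.33) or 3 (1.11) and without WT replicate 1 (1.28), 2 (1.49) or 3 (1.38). Prkar2b, the type II form of fat and brain, did not pass in any of the 23 settings (-0.047 ± 0.45, 95% interval -1.09 to 0.99).

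The make-up of the kinase transcripts differed accordingly. Prkar1a took 58.6, 67.4 and 57.4% of the summed TPM of the 6 subunit genes in TET2KO replicates 1, 2 and 3, against 76.9, 77.7 and 78.1% in WT replicates 1, 2 and 3. Among regulatory subunits Prkar2a took 8.98, 5.12 and 8.66%, against 2.57, 2.44 and 2.14% in the libraries labelled WT. The summed TPM of the catalytic genes over that of the regulatory genes was 0.547, 0.403 and 0.582, against 0.260, 0.252 and 0.250 in the libraries labelled WT. None of these 3 measures overlapped between the groups, and all 3 rest on the deposited TPM, from which no trend was removed. The balance between the 2 catalytic genes overlapped, with Prkaca at 92.4, 92.7 and 93.4%, against 92.0, 91.8 and 94.2% in the libraries labelled WT. The longest transcript of Prkaca is shorter than that of Prkar1a (3513 nt), and that of Prkar2a is longer (4965 nt).

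Prkg1, the kinase of cyclic GMP in smooth muscle, stood at 7.63, 2.77 and 6.26 CPM in the libraries labelled TET2KO, against 3.02, 2.41 and 2.52 CPM in those labelled WT. TET2KO replicate 2 lay within the WT range, so the groups overlapped. It was higher as counted (1.07 ± 0.38, edgeR adjusted p = 0.0396), not with the trend removed (0.53 ± 0.30) unless TET2KO replicate 2 was left out (0.81). As counted the call was lost without TET2KO replicate 1 (0.79) or 3 (1.00) and without WT replicate 1 (1.17), 2 (1.00) or 3 (1.03).

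Of 13 tested anchoring proteins, 10 were higher and 3 (Akap7, Akap8l and Akap10) did not pass the test, where 33.4% of all genes were higher and 29.4% lower. Among the 10, Akap2 had passed the filter through the libraries labelled TET2KO alone. With the trend removed Akap7, Akap8 and Akap13 were higher and 10 did not pass, where 21.7% of all genes were higher and 24.2% lower. Akap1, which holds the kinase at the outer mitochondrial membrane, had the highest level, 93.2 ± 18.1 TPM in the libraries labelled TET2KO and 36.5 ± 2.92 TPM in those labelled WT (SD, n = 3). It stood at 180.1, 147 and 170.5 CPM, against 102, 101 and 102 CPM in the libraries labelled WT. The 3 WT values were nearly equal and lay below all TET2KO values (0.71 ± 0.16), and the trend-removed value turned to -0.22 ± 0.13, which passed the test only without TET2KO replicate 2 (-0.35). The share of Akap1 in the TPM of the group overlapped, at 44.8, 50.3 and 48%, against 46.2, 45 and 46% in the libraries labelled WT.

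Several large scaffolds were higher as counted. Akap13, a large scaffold of heart muscle, stood at 51.9, 12.9 and 40.7 CPM in the libraries labelled TET2KO, against 7.15, 5.11 and 5.88 CPM in those labelled WT. The 2 groups were apart (2.54 ± 0.48, trend-removed 0.52 ± 0.15), and the trend-removed call was lost without TET2KO replicate 3 (0.45), WT replicate 2 (0.39) or WT replicate 3 (0.54). Akap6, which anchors the kinase at the nuclear envelope of heart muscle cells, had 98, 29.4 and 78.7 CPM, against 25.4, 21.3 and 18.2 CPM in the libraries labelled WT. TET2KO replicate 2 was just above the WT range (1.67 ± 0.41), and the trend-removed value of 0.35 ± 0.19 passed only without TET2KO replicate 2 (0.53). Akap12, a scaffold of the cell membrane known as gravin, had 36.6, 8.37 and 21.7 CPM, against 6.77, 3.76 and 3.75 CPM in the libraries labelled WT. Again there was no overlap (2.22 ± 0.52), and the trend-removed value of 0.56 ± 0.27 passed only without TET2KO replicate 2 (0.74) or WT replicate 1 (0.88). Akap11 stood at 34.4, 22.1 and 25.4 CPM, against 13.2, 14.2 and 9.13 CPM in the libraries labelled WT (1.16 ± 0.24). All libraries labelled TET2KO were above those labelled WT, and its trend-removed value of 0.36 ± 0.14 did not pass. Among the trend-removed fits without 1 library it passed only without TET2KO replicate 2 (0.33). Akap6 and Akap11 also passed in at least 1 of the trend-removed fits with merged exon length or the replicate block.

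Akap7, whose long form ties the kinase to phospholamban in heart muscle, has a short transcript of low GC content. It stood at 19.9, 23.9 and 23.0 CPM in the libraries labelled TET2KO, against 23.0, 23.4 and 23.4 CPM in those labelled WT. The groups overlapped as counted (-0.065 ± 0.15, 95% interval -0.41 to 0.28), and with a transcript of 2321 nt and a GC content of 41.8% it was higher with the trend removed (0.79 ± 0.14, edgeR adjusted p = 0.00451), also without any 1 library. Akap8l, a nuclear member, had 27.2, 26.7 and 24.6 CPM, against 23.4, 25.0 and 26.4 CPM in the libraries labelled WT. It did not pass in either fit (0.069 ± 0.14 and -0.020 ± 0.11). Its neighbour on the chromosome Akap8, also nuclear, was higher in both (1.06 ± 0.26 and 0.84 ± 0.21), and lost the trend-removed call without WT replicate 1 (0.78) or WT replicate 3 (0.77). Akap10 did not pass in either fit (-0.083 ± 0.18 and -0.22 ± 0.15), and on log2(TPM + 1) values it was higher (0.46).

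The remaining 4 anchoring proteins were higher as counted and not in the main trend-removed fit of all 6 libraries. Akap5 did pass in the trend-removed fits with merged exon length and with the replicate block, and Akap2 and Akap17b in at least 1 of these. Akap9, which ties the kinase to a potassium channel and to the centrosome, had a log2 fold change of 2.05 ± 0.51 (trend-removed 0.60 ± 0.28), lost without WT replicate 3 (1.93). Akap5, a scaffold of adrenergic receptors and calcium channels, had 1.77 ± 0.52 (trend-removed 0.97 ± 0.40). Its call was lost without WT replicate 2 (1.68) or WT replicate 3 (1.64), and its value fell to 1.07 without TET2KO replicate 1. Akap17b had 1.11 ± 0.36 (trend-removed 0.57 ± 0.30), lost without TET2KO replicate 1 (0.90), WT replicate 1 (1.16) or WT replicate 3 (0.86). Akap2 had 90, 16 and 76 reads in the libraries labelled TET2KO and 2, 7 and 8 in those labelled WT. Its value of 2.71 ± 0.71 (trend-removed 1.25 ± 0.55) was lost without WT replicate 1 (2.31) and is uncertain, since 84.4% of its exonic bases are also annotated to Pakap on the same strand. With the trend removed, Akap9 (0.84), Akap5 (1.17) and Akap2 (1.51) were higher without TET2KO replicate 2.

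The 2 tested genes that match by symbol alone went opposite ways. Pde4dip (ENSMUSG00000038170, GRCm38 chromosome 3, 97689824 to 97888707, minus strand, protein coding) encodes myomegalin, a scaffold of the centrosome and Golgi that binds a PDE4 enzyme. It stood at 985, 204 and 786 CPM in the libraries labelled TET2KO, against 79.3, 90.6 and 96.1 CPM in those labelled WT. All libraries labelled TET2KO were above those labelled WT, and TET2KO replicate 2 was the lowest of them (7.42-fold, log2 fold change 2.89 ± 0.53, trend-removed 0.71 ± 0.16). Pde6d (ENSMUSG00000026239, GRCm38 chromosome 1, 86542994 to 86582629, minus strand, protein coding) had 30.5, 62.9 and 39.2 CPM, against 109, 93.4 and 116 CPM in the libraries labelled WT. It was the only member lower as counted (-1.27 ± 0.27, edgeR adjusted p = 0.00721, trend-removed -0.37 ± 0.13), and it has the shortest transcript of the tested members, 1159 nt. The trend-removed call was lost without TET2KO replicate 1 (-0.29), TET2KO replicate 3 (-0.34), WT replicate 1 (-0.34), WT replicate 2 (-0.42) or WT replicate 3 (-0.34).

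Fold changes within the pathway followed transcript length, as they did over all genes. Spearman's rank correlation across the 48 tested members, which share their libraries, was 0.56 with length and 0.38 with GC content, and 0.091 with length once the trend was removed. The members have long transcripts, with a median of 4500 nt against 2996 nt in all tested genes, and 41 of 48 lie above that median. Of the 16 shortest (1159 to 3802 nt) 6 were higher and 1 lower, with a median log2 fold change of 0.44. Of the 16 in the middle (3874 to 6038 nt) 9 were higher, with a median of 1.16. Of the 16 longest (6195 to 14847 nt) 14 were higher, with a median of 1.45. The 2 of the longest that did not pass were the phosphodiesterases Pde1c and Pde7a. Over all tested genes in bins of length, the medians were -0.96 to 0.40 in bins centred on 1226 to 3660 nt. They were 0.57 to 1.09 in those centred on 3982 to 6036 nt, and 1.35 and 1.42 in those centred on 7154 and 9741 nt. The share of all genes called at each length was not counted.

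**Figure D4:**
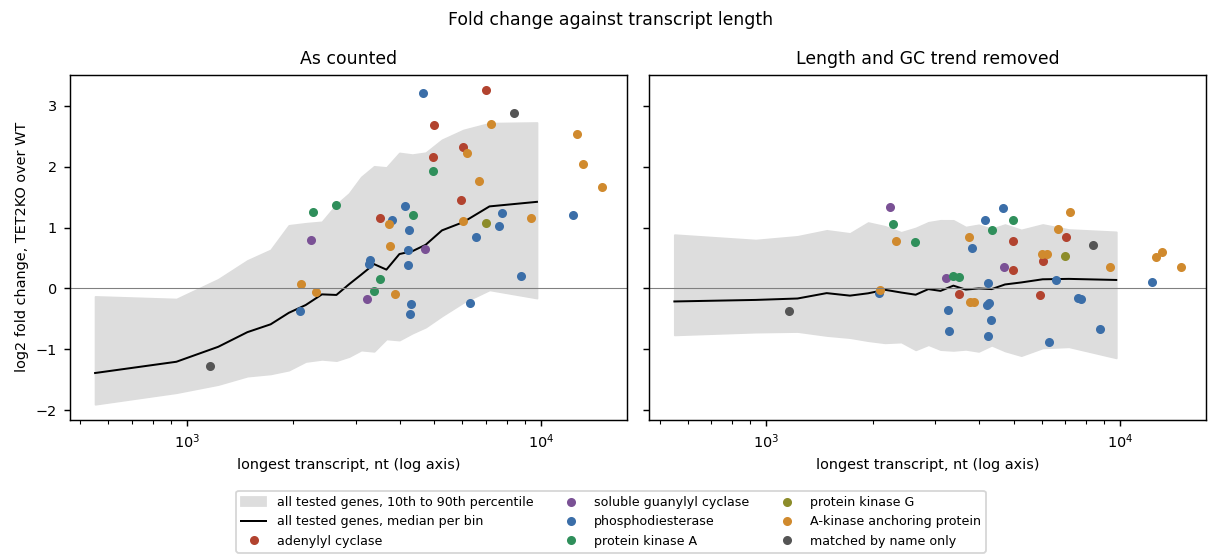
Log2 fold change of the libraries labelled TET2KO over those labelled WT (vertical axis) against the length of the longest transcript in nt (horizontal log axis), as counted on the left and with the length and GC trend removed on the right; points are members coloured by role, the line is the median of all tested genes in bins of length and the shaded band their 10th to 90th percentile. Most members follow the rising line on the left, and on the right the line is nearly flat and phosphodiesterases (blue) make up most of the lowest points.

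The genes around the pathway were taken from a list of receptors, G proteins, further effectors and substrates that the symbol pattern does not match. Of 69 tested (77 with a row), 40 passed as higher and 11 as lower, and 18 did not pass, with a median log2 fold change of 0.84, against the 33.4% higher and 29.4% lower of all genes. The trend-removed fit had 18 higher and 12 lower, with a median of 0.23, against the 21.7% higher and 24.2% lower of all genes, and 3 of the 69 turned from higher to lower (Gnas, Rapgef3 and Abcc5). The count of lower genes was 4 with scaling by library total, 3 on log2(TPM + 1) values, 3 without TET2KO replicate 3 and 6 without WT replicate 3.

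Upstream of the cyclases, 8 of 13 receptors were higher and 0 lower (2 and 1 with the trend removed). Among all genes 33.4% were higher and 29.4% lower as counted, and 21.7% higher and 24.2% lower with the trend removed. Of the 8 receptors, Vipr1 had passed the filter through the libraries labelled TET2KO alone. Adora2a, an adenosine receptor that stimulates the cyclases, stood at 8.47, 4.14 and 10 CPM in the libraries labelled TET2KO, against 2.5, 1.31 and 2.24 CPM in those labelled WT (log2 fold change 1.91 ± 0.40, trend-removed 0.94 ± 0.30). Chrm2, the muscarinic receptor of the heart that inhibits them, had 72.2, 47.9 and 63.6 CPM, against 37.8, 30.2 and 24.2 CPM in the libraries labelled WT (0.99 ± 0.23, trend-removed 0.74 ± 0.17). Neither receptor overlapped between groups, and both were higher in both fits, though the trend-removed call for Adora2a was lost without TET2KO replicate 3 (0.72), WT replicate 2 (0.67) or WT replicate 3 (1.02). Among G proteins and their regulators 6 of 11 were higher and 1 lower (5 and 2 with the trend removed). Gnas, named after its value was seen, encodes the stimulatory G protein and stood at 368, 266 and 383 CPM, against 182, 188 and 179.6 CPM in the libraries labelled WT. Its groups did not overlap, and it was higher as counted (0.89 ± 0.20) and lower with the trend removed (-0.63 ± 0.18). That second call was lost without TET2KO replicate 3 (-0.61), WT replicate 1 (-0.64), WT replicate 2 (-0.63) or WT replicate 3 (-0.62). Cap2, a cyclase-associated protein, had 117, 85.4 and 116 CPM, against 50.4, 56.8 and 58.7 CPM in the libraries labelled WT (0.94 ± 0.18, trend-removed 0.69 ± 0.14). Grk2, a kinase that desensitises adrenergic receptors, had 52.6, 27.2 and 45.7 CPM, against 14.9, 15.0 and 15.0 CPM in the libraries labelled WT (1.48 ± 0.25). The groups of both genes did not overlap, and the trend-removed value of Grk2 (0.15 ± 0.11) did not pass.

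Both tested synthases of nitric oxide were higher in both fits, where 16.3% of all genes were. Nos2, the inducible form, stood at 13.2, 4.2 and 8.35 CPM in the libraries labelled TET2KO, against 1.01, 1.06 and 0.616 CPM in those labelled WT (3.24 ± 0.47, trend-removed 1.98 ± 0.28). Nos3, the endothelial form, had 32.0, 9.07 and 21.8 CPM, against 4.22, 4.13 and 4.31 CPM in the libraries labelled WT (2.31 ± 0.43, trend-removed 0.50 ± 0.16). Neither synthase overlapped between groups. The trend-removed call for Nos3 was lost without any 1 library other than TET2KO replicate 2 (values between 0.40 and 0.54). The soluble guanylyl cyclase genes, whose product is the receptor for nitric oxide, did not pass as counted, and the difference between synthases and receptor was not tested.

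Of 3 tested inhibitors of protein kinase A, Pkia and Pkig were lower and Pkib was not past the test (-0.90 ± 0.39), and with the trend removed Pkia alone was lower. Among all genes 29.4% were lower as counted and 24.2% with the trend removed. The difference of the inhibitors from the catalytic subunits was not tested. Pkia, which blocks the free catalytic subunit, stood at 208, 501 and 279 CPM in the libraries labelled TET2KO, against 814, 749 and 774 CPM in those labelled WT. The groups did not overlap (-1.24 ± 0.32, trend-removed -0.69 ± 0.17), and without TET2KO replicate 3 the call was lost as counted (-1.11) and with the trend removed (-0.65). Pkig, of the same family, had 137, 239 and 179 CPM, against 378, 347 and 398 CPM in the libraries labelled WT. All libraries labelled TET2KO were below those labelled WT (-1.02 ± 0.23), while -0.12 ± 0.10, the trend-removed value, was not past the test.

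Of 11 further effectors 4 were higher and 2 lower (2 and 4 with the trend removed). Among all genes 33.4% were higher and 29.4% lower as counted, and 21.7% higher and 24.2% lower with the trend removed. Of the 4 higher effectors, Hcn4 had passed the filter through the libraries labelled TET2KO alone. Rapgef3, an exchange factor that cyclic AMP activates, named after its value was seen, was higher as counted (0.70 ± 0.18) and lower with the trend removed (-0.95 ± 0.23). As counted the call was lost without WT replicate 1 (0.69) or WT replicate 3 (0.69). Prkx, a kinase related to the catalytic subunits, stood at 22.9, 10.3 and 18.4 CPM in the libraries labelled TET2KO, against 5.95, 5.36 and 4.76 CPM in those labelled WT (1.68 ± 0.31, trend-removed 1.47 ± 0.26). Hcn2, a pacemaker channel gated by cyclic AMP, had 21.3, 7.97 and 22.1 CPM, against 2.45, 1.64 and 2.74 CPM in the libraries labelled WT (2.92 ± 0.43, trend-removed 0.91 ± 0.23). Neither overlapped between groups, and both were higher in both fits, Hcn2 with the trend removed not without TET2KO replicate 3 (0.77). Both tested efflux pumps of cyclic nucleotides were higher as counted. Abcc4 had 11.8, 4.40 and 8.26 CPM, against 2.69, 3.35 and 3.14 CPM in the libraries labelled WT (1.41 ± 0.36, trend-removed 0.20 ± 0.19, not past), a call lost without WT replicate 1 (1.33). Abcc5 had 21.9, 17.4 and 18.5 CPM, against 12.6, 14.9 and 13 CPM in the libraries labelled WT (0.51 ± 0.17). Its groups did not overlap, its sign turned with the trend removed (-0.70 ± 0.20, past the test), and as counted its call was lost without any 1 library other than TET2KO replicate 2 (values between 0.43 and 0.59). The trend-removed call for Abcc5 was lost without TET2KO replicate 1 (-0.57), TET2KO replicate 3 (-0.60), WT replicate 2 (-0.66) or WT replicate 3 (-0.69).

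Downstream, 6 of 8 genes of the CREB family and its co-activators were higher and 1 lower (2 and 1 with the trend removed). Among all genes 33.4% were higher and 29.4% lower as counted, and 21.7% higher and 24.2% lower with the trend removed. The co-activator Crtc2 stood at 11.5, 4.10 and 8.35 CPM in the libraries labelled TET2KO, against 2.45, 2.45 and 2.35 CPM in those labelled WT (1.72 ± 0.38, trend-removed 0.85 ± 0.24). Its relative Crtc1 had 10.4, 1.53 and 5.91 CPM, against 0.576, 0.818 and 0.784 CPM in the libraries labelled WT (3.03 ± 0.67, trend-removed 0.66 ± 0.30, not past). Neither overlapped between groups. With the trend removed, Crtc2 was not past without any 1 library other than TET2KO replicate 2 (values between 0.64 and 0.87), and Crtc1 was higher without TET2KO replicate 2 (0.84). The lower gene, named after its value was seen, was Crem, a factor of the same family (-1.19 ± 0.29, trend-removed -0.73 ± 0.18, the second call lost without TET2KO replicate 3, at -0.65).

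Of 10 kinase substrates 5 were higher and 3 lower, where 33.4% of all genes were higher and 29.4% lower. With the trend removed 1 substrate was higher, where 21.7% of all genes were. That was Hspb6, a small heat shock protein, at 954, 459 and 862 CPM in the libraries labelled TET2KO, against 169, 244 and 220 CPM in those labelled WT. The groups did not overlap, and its value was larger with the trend removed (2.48 ± 0.34) than as counted (1.85 ± 0.31). Mrvi1, a substrate of protein kinase G in smooth muscle, had 8.77, 3.77 and 7.30 CPM, against 0.960, 2.04 and 1.12 CPM in the libraries labelled WT (2.25 ± 0.42, trend-removed 0.70 ± 0.26, not past). Of 9 anchoring proteins outside the pattern 7 were higher and 2 lower (4 and 2 with the trend removed). Among the 7, Pakap had passed the filter through the libraries labelled TET2KO alone. Arfgef2, an exchange factor for Arf that binds protein kinase A, had 44.4, 12.4 and 38.4 CPM, against 4.61, 5.89 and 4.87 CPM in the libraries labelled WT (2.63 ± 0.45, trend-removed 0.81 ± 0.17). Ezr, a linker of membrane and actin, had 47.4, 23.8 and 36.7 CPM, against 14.1, 14.6 and 11.6 CPM in the libraries labelled WT (1.42 ± 0.26, trend-removed 0.85 ± 0.17). Mrvi1, Arfgef2 and Ezr did not overlap between groups, and Arfgef2 and Ezr were higher in both fits. Mrvi1 was higher with the trend removed without TET2KO replicate 2 (0.68) or WT replicate 2 (1.09).

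Marker genes of cell types were compared because the tissue holds many of them. Heart muscle markers were present at a summed level of 64106 to 68462 TPM in the libraries labelled TET2KO and 71034 to 73303 TPM in those labelled WT, and of 8 tested 3 were higher and 4 lower (3 and 1 with the trend removed). Over all genes 33.4% were higher and 29.4% lower as counted, and 21.7% higher and 24.2% lower with the trend removed. Endothelial markers summed to 243 to 445 TPM, against 180 to 212 TPM in the libraries labelled WT (4 of 6 higher and 2 lower, and 3 and 1 with the trend removed). Smooth muscle markers had 2 of 5 higher and 1 lower (1 and 1 with the trend removed), and pericyte markers 2 of 4 higher and 2 lower in both fits. Macrophage markers had 2 of 5 higher and 0 lower (1 and 1), and fibroblast markers 2 of 6 higher and 4 lower (1 and 0). All 4 erythroid markers were lower in both fits, at a summed 531 to 1990 TPM, against 2740 to 13306 TPM in the libraries labelled WT. The part of these cells in the results was not tested.

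The authors' deposited table of fold changes and adjusted p-values lists 50 of the 62 members among 14370 genes, which are not all the genes edgeR tested although their number is the same. At an adjusted p under 0.05 the authors' deposited table has 30 higher, 1 lower and 19 not past, where over all its genes 33.6% were higher and 31.4% lower (65.0% in either direction). For 47 of the 48 members in both, the call was the one edgeR gave.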

How the data were processed

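Poly(A)-selected RNA of 6 hearts was read in pairs of 150 nt, per the labels' protocols. Trimmomatic 0.36, STAR 2.5.2b, featureCounts, Subread 1.5.2, DESeq2 and the builds GRCm38 and mm10 are named in the submitters' processing notes. The sources used here do not give the annotation release or the strand setting. Raw counts per gene were what the authors deposited for each library, beside TPM and a comparison table with log2 fold changes, p-values and a signal, which is each count divided by 1 size factor per library.

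Counts were tested with edgeR 4.0.16 in R 4.3.3 (TMM factors, filterByExpr with a minimum count of 10, robust quasi-likelihood test on group alone, Benjamini-Hochberg adjustment over 14370 genes). SE is the log2 fold change divided by the root of F, and 95% intervals use the t distribution of the fit. The trend on length and GC content of the longest GENCODE transcript was fitted in each library with mgcv 1.9.3 (basis size 6 per axis, prior count 2) and entered as offsets for 14341 genes. It took up 57.8% of the variance of the log2 fold changes. The steps were tested on simulated data. There were 22 alternative settings, among them DESeq2 1.42.0, limma 3.58.1 and leaving out each library.

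The members and all lists were chosen with earlier results of these data known, so lists have counts and medians and no test. Values in every library are given for the 4 members of each role with the highest mean TPM, the 4 with the smallest p and the 2 genes of each role of the surrounding list with the smallest p; other members are given in short. The replicate numbers did not pair the samples. Between replicates the counts differed beyond sampling noise in all pairs, so none was counted as a repeat.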

Additional observations from a re-analysis of the deposited data

How the results depend on the processing

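Over all genes 9037 passed the test, and 5692 with the trend removed and replicate number as a block. With the trend removed, 14 members were higher and 6 lower, 18 surrounding genes were higher, and Tet2 stood at 0.27; with merged exons as length, 18, 8, 25 and 0.39; with the trend removed and the replicate block, 15, 4, 18 and 0.27. Without 1 library, in either fit, all calls ran between 4062 and 10894, higher members between 8 and 36, lower members between 1 and 7, higher surrounding genes between 13 and 44, lower ones between 3 and 15, and Tet2 between 0.17 and 1.70. Lower surrounding genes numbered 4 by library total and 3 on log2(TPM + 1). The replicate block alone gave 26 higher members and 1 lower; correlations of same-numbered deviations were 0.0386, -0.231 and -0.0126, so the samples share only a number. Signs turned in the trend-removed fit, in that fit with the replicate block, and in some fits without 1 library, whose range over both fits comes last, for Adcy4 (-0.094, -0.12, -0.25 to 1.51), Adcy7 (-0.11, -0.12, -0.19 to 1.82), Pde10a (-0.18, -0.072, -0.39 to 1.84), Pde1c (-0.66, -0.68, -0.85 to 0.27), Pde4c (-0.70, -0.69, -0.84 to 0.69), Pde5a (-0.15, -0.14, -0.34 to 1.27), Akap1 (-0.22, -0.23, -0.35 to 0.82), Akap7 (0.79, 0.78, -0.092 to 0.91) and Abcc5 (-0.70, -0.73, -0.96 to 0.61). Pde2a turned to -0.78 with the trend removed (-0.86 to 0.85 without 1 library), and Adcy3 to -0.028 with the trend removed and without WT replicate 3 (-0.028 to 3.05 without 1 library). With merged exons as length Pde10a stood at -0.012, Pde1c -0.62, Pde2a -0.65, Pde4c -0.83, Pde4d -0.87, Akap7 0.42, Akap8l -0.88 and Abcc5 -0.71. On log2(TPM + 1) values Gucy1b1 stood at 0.44, Akap10 at 0.46 and Akap7 at 0.52. The causes were not tested. Low members such as Adcy3, Prkar1b and Akap2 rest on few reads, which limits their precision.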
